A study of Mus musculus with 10 samples.

Results

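The Hedgehog pathway genes described here are 9 genes: the ligands Shh, Ihh and Dhh, the receptors Ptch1 and Smo, the ligand-binding antagonist Hhip, and the transcription factors Gli1, Gli2 and Gli3. They were taken by symbol from a table of 55421 genes. All 9 were found, 8 had enough counts to enter the test among 18509 genes, and Ihh did not. The data are RNA sequencing counts from skin ulcers cut surgically in db/db mice, which lack a working leptin receptor and become obese and diabetic. One group received Fu Huang ointment, applied topically, together with saline, and the other received saline alone, each as 5 libraries of ulcer tissue. Both groups share the db/db background and the wound, and the effect of the ointment was assessed after 7 days of administration. The labels do not say whether each library came from its own animal, so the p-values measure the spread between these libraries.

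Hedgehog ligands are secreted proteins that bind Ptch1. Unbound Ptch1 holds Smo inactive, and ligand binding lets Smo act at the primary cilium and turn Gli proteins into activators of transcription. Ptch1, Hhip and Gli1 are themselves target genes, so their transcripts are widely used as a readout of pathway activity. In skin, Shh is made by the epithelium of the growing hair follicle and acts on that epithelium and on the dermal cells beside it.

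Libraries held 47.8 to 62.9 M counts (M, mega) in the ointment group and 58.1 to 62.7 M in the saline group. Levels are given as CPM, counts scaled to library size after normalization between libraries, and as CPM per kilobase of exon when genes are compared with each other. Markers of keratinocytes, fibroblasts and macrophages were present in every library. In bulk tissue, fewer cells of a type and less RNA per cell cannot be told apart.

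Gli1 fell 5.74-fold with ointment, while the groups overlapped for its relative Gli3. Shh, Ptch1, Smo, Hhip and Gli2 were lower in every ointment library than in any saline library, but none of these 5 passed the threshold over all genes. In all, 1 of the 8 members tested was called at an adjusted p under 0.05 by edgeR's quasi-likelihood test, against a background of 0.983% of all tested genes called lower, 0.692% called higher and 1.67% called in either direction. At an unadjusted p under 0.05 the members numbered 6, beside 8.56% of all tested genes lower and 17.1% in either direction. The DESeq2 Wald test called those same 6, Shh, Ptch1, Smo, Hhip, Gli1 and Gli2, where it called 4.36% of all genes lower, 4.73% higher and 9.09% in either direction. Over all 9 members, 6 had groups that did not overlap, each lower with ointment. Of all tested genes, 3.44% were lower without overlap and 6.54% differed without overlap in either direction. The median log2 fold change of the 8 members tested was -1.22, beside -0.0025 over all genes tested. Shh, Dhh and Hhip passed the low-count filter only through the saline libraries, as 2, 4 and 4 of their 5 ointment libraries reached its minimum, so their presence among the tested members is not independent of a difference.

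**Figure D1:**
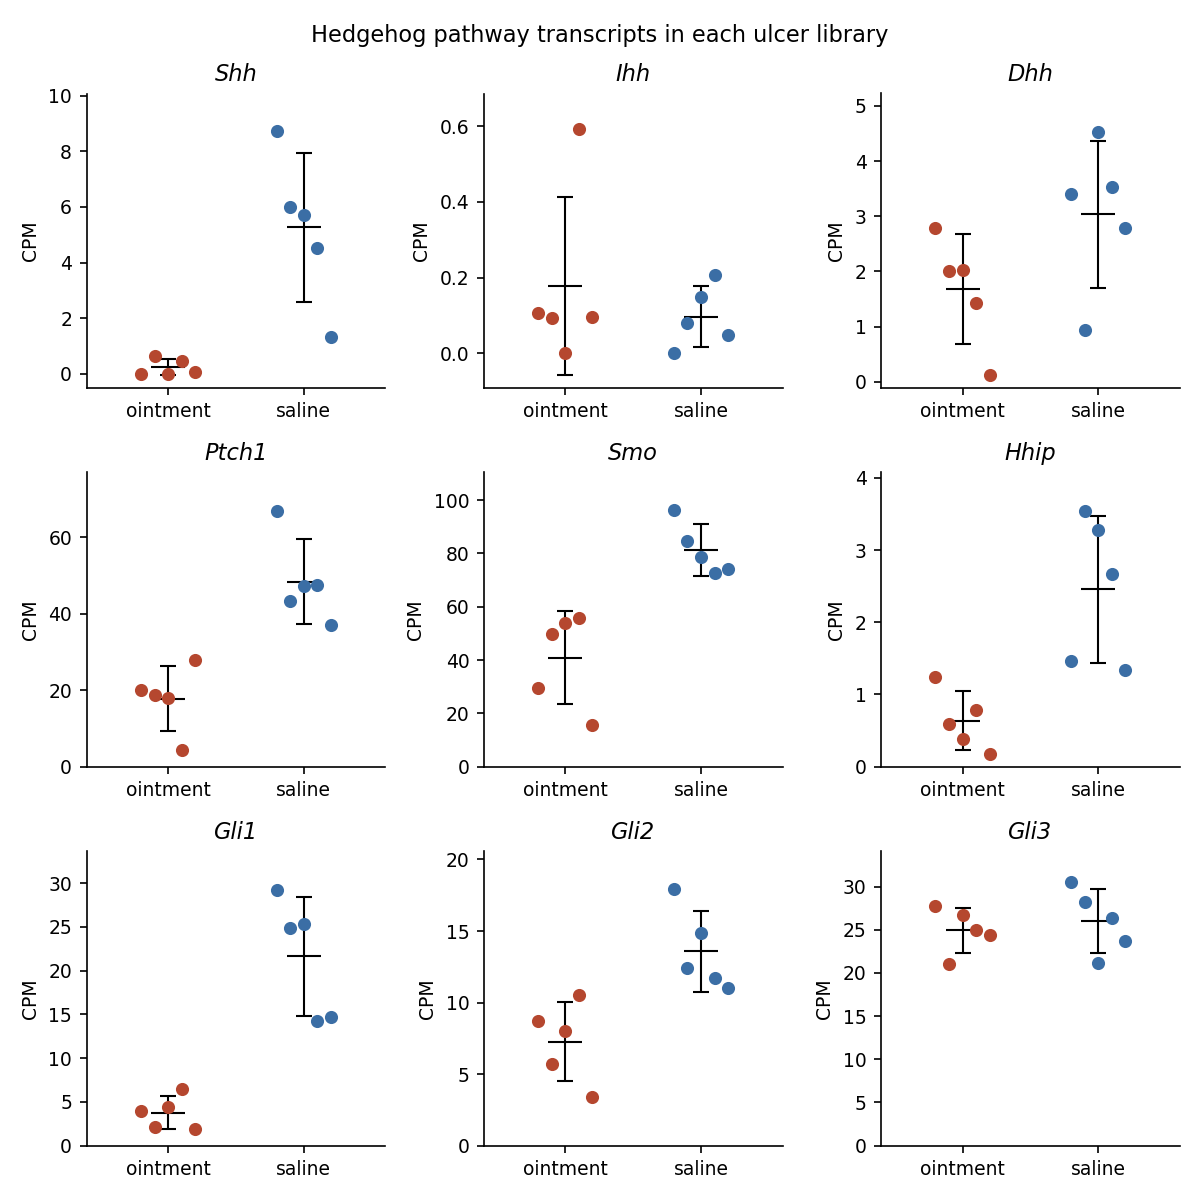
CPM (vertical axes) of the 9 Hedgehog genes in each library, with 5 ointment libraries left and 5 saline libraries right in each panel, in order of library number. Horizontal marks are means and bars are SDs. Points of the 2 groups do not overlap for Shh, Ptch1, Smo, Hhip, Gli1 and Gli2, and they overlap for Ihh, Dhh and Gli3.

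Shh encodes Sonic hedgehog, the ligand of the hair follicle (chromosome 5, 28456815 to 28467256, minus strand, GRCm38). It had 0, 34, 0, 26 and 4 counts in ointment libraries 1 to 5, against 524, 373, 346, 287 and 80 counts in saline libraries 1 to 5. As CPM these were 0, 0.635, 0, 0.466 and 0.0757 in the ointment libraries, against 8.72, 5.997, 5.72, 4.54 and 1.32 in the saline libraries. Every ointment library lay below the lowest saline library, and saline 5 stood closest to them. The 0 counts of ointment 1 and 3 allow up to 0.0639 and 0.0495 CPM, by counting error alone. The mean was 0.235 ± 0.296 CPM with ointment and 5.26 ± 2.68 CPM with saline (SD, n = 5 each). This gave a log2 fold change of -4.47 (SE 1.15, 95% confidence interval -7.02 to -1.91) and an adjusted p of 0.0836 by edgeR. With all values divided by 4 the adjusted p was 0.0308, where 1.24% of all genes were called lower. Exons of the antisense gene 9530036O11Rik cover 15.7% of the exon length of Shh, and that gene was at 0 CPM with ointment and 0.0325 CPM with saline. Exons of the non-coding gene Gm26894, also on the other strand, overlap 361 of the 2847 exon bases of Shh, and its level was not examined.

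Dhh, Desert hedgehog, is the ligand of Schwann cells around peripheral nerves and of Sertoli cells in the testis (chromosome 15, 98891152 to 98898540, minus strand). It was at 2.79, 1.999, 2.03, 1.43 and 0.114 CPM in ointment libraries 1 to 5, against 3.41, 0.932, 4.53, 3.53 and 2.79 CPM in saline libraries 1 to 5. The groups overlapped, with ointment 5 and saline 2 the lowest of their groups. In the fit its log2 fold change was -0.86 (SE 0.66, 95% confidence interval -2.33 to 0.61, adjusted p = 0.581 by edgeR), an interval that holds both a large decrease and a modest increase. Exons of Rhebl1 on the same strand cover 12.4% of the exon length of Dhh, and those of the antisense gene Gm49442 cover 25.2%, so reads there cannot be assigned with certainty.

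Ihh, Indian hedgehog, best known from growth plate cartilage, was barely detected (chromosome 1, 74945315 to 74951672, minus strand). It had 5, 5, 0, 33 and 5 counts in ointment libraries 1 to 5, against 0, 5, 9, 13 and 3 counts in saline libraries 1 to 5. The groups overlapped and the highest value was that of ointment 4. The means were 0.177 ± 0.235 CPM with ointment and 0.0969 ± 0.0813 CPM with saline (SD, n = 5 each; exact permutation test, two-sided p = 0.675). Without ointment 4 the difference in means turned to -0.0232 CPM.

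The order of the ligands differed between the groups. Per kilobase of exon, Dhh was the highest ligand with ointment at 0.380 ± 0.227 CPM per kilobase, followed by Shh at 0.0827 ± 0.104 and Ihh at 0.0581 ± 0.0772 (SD, n = 5). With saline, Shh was the highest at 1.85 ± 0.942 CPM per kilobase, followed by Dhh at 0.691 ± 0.303 and Ihh at 0.0318 ± 0.0267 (SD, n = 5). Shh exceeded Dhh per kilobase in 1 of 5 ointment libraries and in 4 of 5 saline libraries. The ranges of Shh and Dhh overlapped within each group. The log2 ratio of Shh over Dhh, with 0.5 CPM added to each, was -1.46 ± 1.07 with ointment and 0.64 ± 1.14 with saline (SD, n = 5 each), a difference of -2.10. An exact permutation test gave a two-sided p of 0.0159, or 0.0198 adjusted over the 5 ratios that were chosen after the values had been seen. In ointment libraries 1 to 5 Shh was at 0, 0.635, 0, 0.466 and 0.0757 CPM. The 0.5 CPM added to each gene therefore set much of the ointment ratio. Both genes also passed the low-count filter only through the saline libraries. For these reasons no conclusion about the balance of the ligands is drawn from this p.

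Ptch1, the receptor that binds the ligands and itself a target gene, lies on chromosome 13 (63508328 to 63573598, minus strand). It was at 19.99, 18.9, 17.9, 4.34 and 27.95 CPM in ointment libraries 1 to 5, against 66.9, 43.3, 47.2, 47.6 and 37.1 CPM in saline libraries 1 to 5. No ointment library reached the lowest saline library, and ointment 4 stood below the rest of its group. By edgeR the log2 fold change was -1.44 (SE 0.40, 95% confidence interval -2.33 to -0.56, adjusted p = 0.1004). Without ointment 4 it was -1.18 with an adjusted p of 0.0309, where 1.18% of all genes were called lower, and Ptch1 was not called in any other fit that left out a single library.

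Smo, the transmembrane protein that passes the signal on once Ptch1 is bound, had the highest level per kilobase of the 9 genes in both groups (chromosome 6, 29735503 to 29761365, plus strand). It was at 29.4, 49.8, 53.8, 55.9 and 15.7 CPM in ointment libraries 1 to 5, against 96.3, 84.8, 78.5, 72.8 and 74.0 CPM in saline libraries 1 to 5. The groups did not overlap, and ointment 1 and 5 were the lowest. Its log2 fold change was -0.99 (SE 0.31, 95% confidence interval -1.67 to -0.31, adjusted p = 0.135 by edgeR). The balance of the receptors varied widely between ointment libraries. The log2 ratio of Ptch1 over Smo was -1.24 ± 1.59 with ointment and -0.76 ± 0.21 with saline (SD, n = 5 each), and the difference of -0.48 did not pass (exact permutation p = 0.579, two-sided).

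Hhip, a membrane protein that binds the ligands and keeps them from Ptch1, is also a target gene (chromosome 8, 79965851 to 80058006, minus strand). It was at 1.24, 0.598, 0.380, 0.788 and 0.170 CPM in ointment libraries 1 to 5, against 1.46, 3.54, 3.27, 2.67 and 1.34 CPM in saline libraries 1 to 5. The groups came close, with ointment 1 just below saline 5. Hhip had a log2 fold change of -1.95 (SE 0.52, 95% confidence interval -3.11 to -0.80, adjusted p = 0.0913 by edgeR).

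Gli1, the activator whose own transcription depends on the pathway, lies on chromosome 10 (127329882 to 127341974, minus strand). It was at 3.96, 2.11, 4.41, 6.49 and 1.89 CPM in ointment libraries 1 to 5, against 29.2, 24.9, 25.4, 14.2 and 14.7 CPM in saline libraries 1 to 5. The highest ointment library held less than any saline library, and the saline libraries split into 3 higher and 2 lower ones. The mean was 3.77 ± 1.88 CPM with ointment and 21.7 ± 6.80 CPM with saline (SD, n = 5 each), a 5.74-fold decrease in the fit. This corresponds to a log2 fold change of -2.52 (SE 0.38, 95% confidence interval -3.37 to -1.67, adjusted p = 0.0165 by edgeR). The call held whichever single library was left out (adjusted p up to 0.0456). It did not hold with 4 libraries per group, without ointment 5 and saline 1 (adjusted p = 0.0760, where 0.203% of all genes were called lower). Ointment 5 held the least Gli1 of its group, and saline 1 held the most of its group. Exons of Arhgap9 on the other strand cover 1.24% of the exon length of Gli1, and Arhgap9 had a positive log2 fold change (0.88, adjusted p = 0.0681). Those of the antisense gene Gm47200 cover 5.31%, and it was listed at 0 CPM in every ointment library and at 0.0687 ± 0.0504 CPM in the saline libraries (SD, n = 5).

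Gli2, which carries most of the activator function in mouse skin, lies on chromosome 1 (118834132 to 119053619, minus strand). It was at 8.71, 5.72, 8.03, 10.5 and 3.37 CPM in ointment libraries 1 to 5, against 17.96, 12.4, 14.8, 11.7 and 11.0 CPM in saline libraries 1 to 5. Ointment 4, the highest of its group, came close to saline 5 without reaching it. The fit gave a log2 fold change of -0.90 (SE 0.29, 95% confidence interval -1.55 to -0.26, adjusted p = 0.146 by edgeR).

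Gli3, the member that acts chiefly as a repressor when no ligand is bound, lies on chromosome 13 (15463235 to 15730026, plus strand). It was at 27.8, 20.98, 26.7, 25.01 and 24.4 CPM in ointment libraries 1 to 5, against 30.5, 28.3, 21.2, 26.3 and 23.8 CPM in saline libraries 1 to 5. The groups overlapped over nearly their whole ranges. Its log2 fold change of -0.06 (SE 0.13, adjusted p = 0.885 by edgeR) had a 95% confidence interval of -0.35 to 0.23 that excludes a change of the size seen in Gli1.

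**Figure D2:**
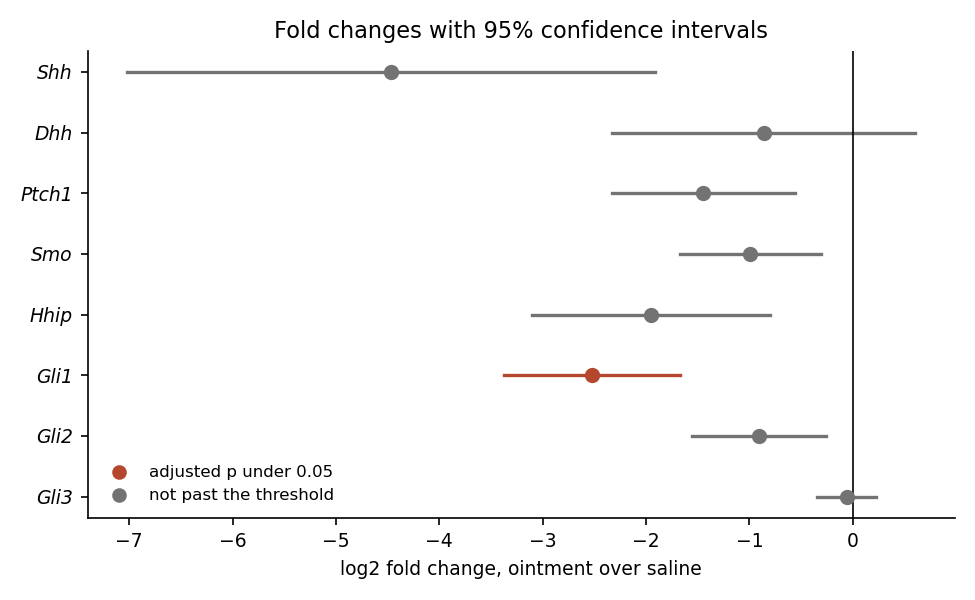
Log2 fold change of ointment over saline (horizontal axis) for 8 Hedgehog genes, from edgeR with 5 libraries per group, with lines for 95% confidence intervals. Gli1 at -2.52 passed the threshold, and the intervals of Dhh and Gli3 include 0.

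The 3 Gli genes stood in a different order in the 2 groups. Per kilobase of exon, Gli3 came first with ointment at 2.60 ± 0.272 CPM per kilobase, followed by Gli2 at 1.06 ± 0.403 and Gli1 at 0.755 ± 0.376 (SD, n = 5). With saline, Gli1 came first at 4.34 ± 1.36 CPM per kilobase, followed by Gli3 at 2.71 ± 0.382 and Gli2 at 1.98 ± 0.412 (SD, n = 5). Gli1 exceeded Gli3 per kilobase in 0 of 5 ointment libraries and in 5 of 5 saline libraries, and the same counts held for Gli1 over Gli2. Gli2 stayed below Gli3 in every library of both groups.

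Ratios between genes of the same library cancel the scaling between libraries, apart from the pseudocount. The log2 ratio of Gli1 over Gli3, on CPM with 0.5 added, was -2.68 ± 0.57 with ointment and -0.31 ± 0.46 with saline, a difference of -2.38. That of Gli1 over Gli2 was -0.89 ± 0.25 with ointment and 0.62 ± 0.28 with saline, a difference of -1.50. That of Gli2 over Gli3 was -1.80 ± 0.54 with ointment and -0.92 ± 0.29 with saline, a difference of -0.87 (SD, n = 5 each throughout). The groups did not overlap in any of the 3 ratios, and each gave an exact permutation p of 0.00794, the smallest possible with these numbers of libraries, or 0.0132 adjusted over 5 ratios. The ratios were chosen after the single genes had been seen, so the tests are not independent of the levels above.

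**Figure D3:**
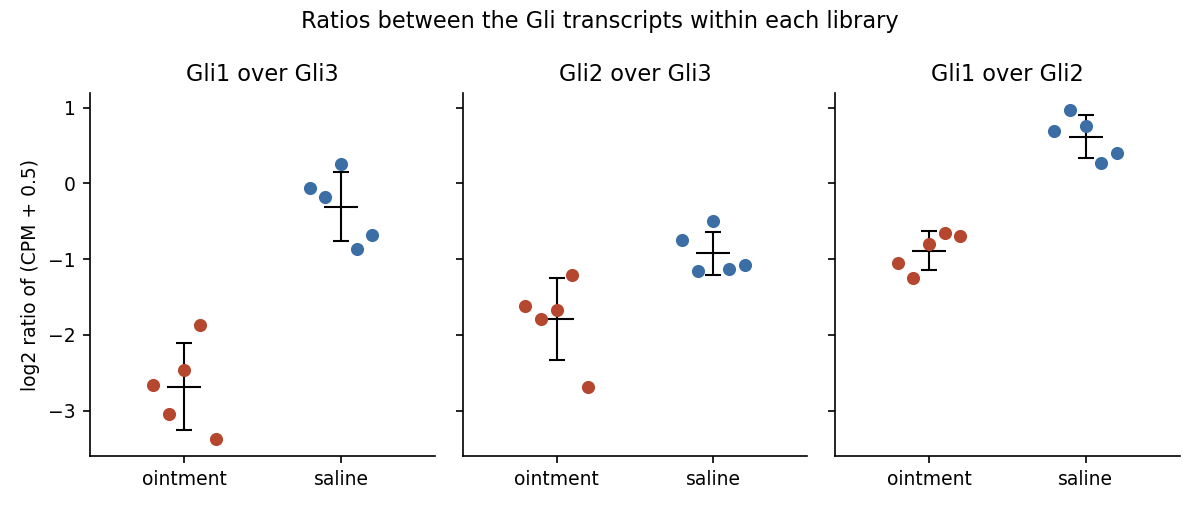
Log2 ratio of CPM + 0.5 between pairs of Gli genes within each library (vertical axis), ointment left and saline right, with means and SDs over 5 libraries. For Gli1 over Gli3 the ointment libraries run from -3.38 to -1.87 and the saline libraries from -0.87 to 0.25.

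Among all 9 genes, Smo came first per kilobase in both groups, at 7.28 ± 3.13 CPM per kilobase with ointment and 14.5 ± 1.71 with saline (SD, n = 5 each). With ointment the order below it was Gli3, Ptch1, Gli2, Gli1, Dhh, Shh, Hhip and Ihh, and only Gli3 and Ptch1 were neighbours with separate ranges. With saline the order below Smo was Gli1, Ptch1, Gli3, Gli2, Shh, Dhh, Hhip and Ihh. There Smo and Gli1 had separate ranges, as did Hhip and Ihh, and every other pair of neighbours overlapped.

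The promoters of the 9 genes were searched for the Gli binding sequence GACCACCCA on either strand with at most 1 mismatch, in RefSeq windows from 250 bases before to 50 bases after each start (GRCm38.p6). Windows were held for 7 members, and 0 of these 7 windows had a match, beside 6.74% of 32851 mouse promoter windows. The 4 genes called lower in the pathway groups described next, Cntfr, Mycn, Scube1 and Scube3, had 9 windows and 0 matches. This says only that these letters were not found in these windows. The 250 bases before the start are given for Ptch1 and Hhip, as target genes that were lower without overlap, and for Gli2 and Gli3, as the Gli genes that differed from each other in ratio. Capitals mark GC boxes (GGGCGG on either strand), which 32.7% of all windows of this length hold. The windows lie at chr13:63565736-63565985 for Ptch1 (minus strand), chr8:80058009-80058258 for Hhip (minus), chr1:119053620-119053869 for Gli2 (minus) and chr13:15463473-15463722 for Gli3 (plus). The genes as located above reach 63573598 for Ptch1 and begin at 15463235 for Gli3, so these windows of Ptch1 and Gli3 belong to starts inside the genes. Their starts further upstream were not searched.
Ptch1: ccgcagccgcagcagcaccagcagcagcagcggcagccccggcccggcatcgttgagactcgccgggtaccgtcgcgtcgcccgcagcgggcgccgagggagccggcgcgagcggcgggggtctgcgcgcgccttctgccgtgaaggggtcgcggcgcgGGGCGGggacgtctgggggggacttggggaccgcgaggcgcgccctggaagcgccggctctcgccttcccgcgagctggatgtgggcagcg
Hhip: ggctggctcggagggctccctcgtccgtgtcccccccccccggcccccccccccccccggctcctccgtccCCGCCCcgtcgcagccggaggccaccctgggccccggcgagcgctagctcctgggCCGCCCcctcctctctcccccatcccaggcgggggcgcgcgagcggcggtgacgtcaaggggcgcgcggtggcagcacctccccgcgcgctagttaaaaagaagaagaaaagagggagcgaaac
Gli2: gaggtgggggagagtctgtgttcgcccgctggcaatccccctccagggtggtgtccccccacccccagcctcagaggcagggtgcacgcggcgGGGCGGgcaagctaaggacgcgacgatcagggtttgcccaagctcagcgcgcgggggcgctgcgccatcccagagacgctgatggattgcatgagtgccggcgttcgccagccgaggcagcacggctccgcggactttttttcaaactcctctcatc
Gli3: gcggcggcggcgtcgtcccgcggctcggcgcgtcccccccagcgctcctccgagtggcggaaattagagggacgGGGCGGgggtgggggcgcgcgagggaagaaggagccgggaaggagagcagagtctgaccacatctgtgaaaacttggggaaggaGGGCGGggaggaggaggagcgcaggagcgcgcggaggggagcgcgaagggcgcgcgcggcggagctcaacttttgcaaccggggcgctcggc
These windows were GC-rich, with 78.4% G or C and 41 CpG pairs in Ptch1, 76.0% and 28 in Hhip, 67.2% and 22 in Gli2, and 72.8% and 34 in Gli3. GC boxes numbered 1 in Ptch1, 2 in Hhip, 1 in Gli2 and 2 in Gli3, so they did not separate Gli3 from the other 3.

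Around the 9 genes, 2 genes of ligand release and reception fell with ointment. Of 11 such genes described, 9 were tested, 2 were called lower and 0 higher, and 7 did not pass (median log2 fold change -0.42). These 2 were Scube3 and Scube1, from a family of secreted proteins that help carry lipid-modified Hedgehog away from the cells that make it. Scube3 was at 1.47, 0.972, 1.42, 1.11 and 0.454 CPM in ointment libraries 1 to 5, against 6.01, 5.48, 7.89, 6.60 and 3.16 CPM in saline libraries 1 to 5. The groups were well apart, with a log2 fold change of -2.42 by edgeR (SE 0.36, adjusted p = 0.0159), and the call held whichever library was left out. Scube1 was at 0.329 ± 0.167 CPM with ointment and 1.78 ± 0.762 CPM with saline (SD, n = 5 each; log2 fold change -2.42, adjusted p = 0.0304). Omitting a library left Scube1 called in 3 of 10 fits, with adjusted p up to 0.0741, and it passed the low-count filter only through the saline libraries. Scube2 did not pass (-0.14, adjusted p = 0.903). The co-receptor genes Boc (-0.42, adjusted p = 0.197) and Cdon (-0.24, 0.723) did not pass either, nor did Disp1, needed for release of the ligands (-0.48, 0.513), and Hhat, which attaches palmitate to them (-0.07, 0.944).

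No gene that relays the signal inside the cell or builds the primary cilium was called by edgeR. Of 19 relay and Gli regulator genes, 18 were tested and 0 called, with 2 at an unadjusted p under 0.05 and 2 called by DESeq2, both higher (median log2 fold change -0.17). The arrestin gene Arrb2 (0.55, adjusted p = 0.0736 by edgeR) and the ubiquitin ligase gene Mgrn1 (0.45, 0.140) had the smallest p, followed by the ciliary gene Evc2 (-0.38, 0.321). All 20 cilium genes were tested and 0 called, with 3 at an unadjusted p under 0.05 and 1 called by DESeq2, which was higher (median -0.05). The motor subunit Kif3b was at 0.38 (adjusted p = 0.121 by edgeR) and the transport gene Ift172 at -0.35 (0.215). Summed over the 20 genes, the cilium level was 459.6 to 504 CPM in the ointment libraries and 459 to 511 CPM in the saline libraries.

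Genes reported as Gli targets in other tissues were called in part. Of 17 described, 16 were tested, 2 called lower, 0 higher, and 14 did not pass (median log2 fold change -0.22). At an unadjusted p under 0.05 they numbered 6, DESeq2 called 4, and 4 were lower without overlap. Mycn, a growth regulator of the Myc family, was at 0.511, 1.03, 0.462, 1.40 and 0.397 CPM in ointment libraries 1 to 5, against 10.6, 5.82, 7.19, 5.44 and 3.50 CPM in saline libraries 1 to 5. No ointment library came near the saline range, the log2 fold change was -3.09 by edgeR (SE 0.45, adjusted p = 0.0158), and the call held whichever library was left out. Cntfr, the receptor for ciliary neurotrophic factor, was at 4.32 ± 0.385 CPM with ointment and 8.43 ± 1.91 CPM with saline (SD, n = 5 each; -0.96, adjusted p = 0.0343). Omitting a library left Cntfr called in 2 of 10 fits. Sox9 (-1.03, adjusted p = 0.0709), Jag2 (-0.85, 0.0913), Foxf1 (-1.30, 0.206) and Hsd11b2 (-1.81, 0.261) did not pass.

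**Figure D4:**
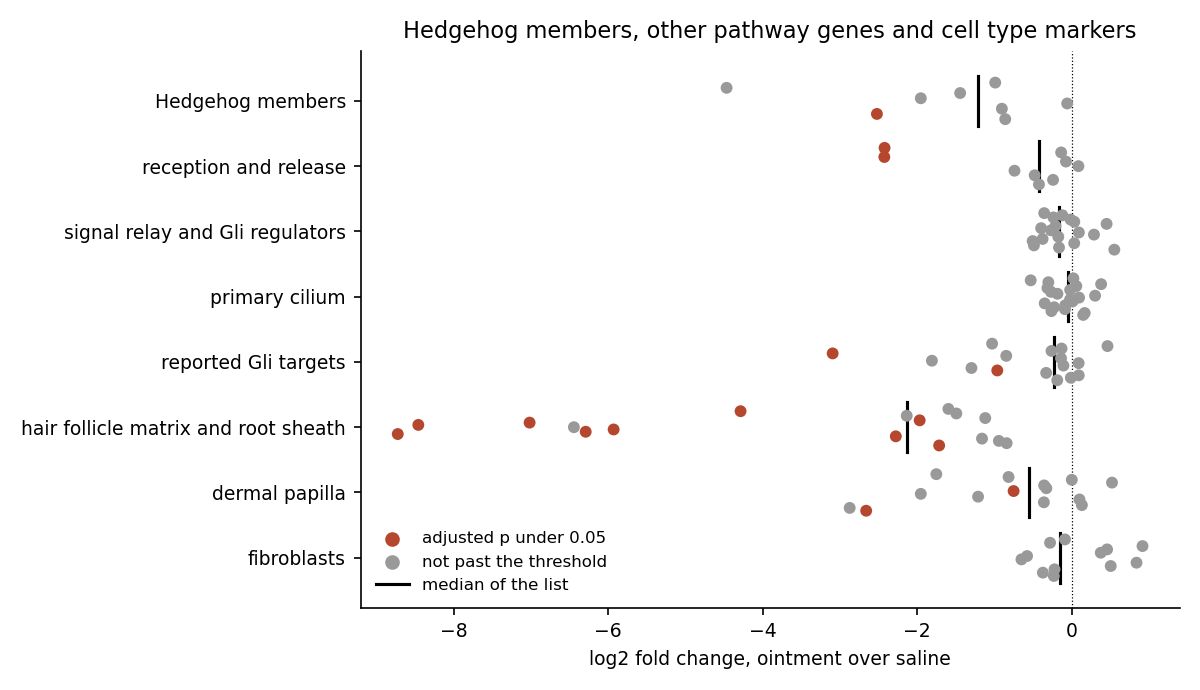
Log2 fold change of ointment over saline (horizontal axis) for each tested gene of 8 lists (rows), with coloured points for an adjusted p under 0.05 and a black line at the median of each list. The Hedgehog genes have a median of -1.22, the reception and release genes -0.42 and the cilium genes -0.05, while follicle matrix genes, 7 of which passed the low-count filter only through the saline libraries, have -2.13. The same route holds for 3 of 8 Hedgehog genes, 2 of 9 reception and release genes, 2 of 16 reported targets and 2 of 14 dermal papilla markers. Hhip stands both among the Hedgehog genes and in the dermal papilla list.

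Hair follicle markers moved with these genes in part. Of 17 tested markers of the follicle matrix and root sheath, 9 were called lower and 0 higher by edgeR, and 13 were lower without overlap. At an unadjusted p under 0.05 they numbered 16, and DESeq2 called 15. Of the 9 called, 6 passed the low-count filter only through the saline libraries (Krt25, Krt27, Krt28, Krt71, Krt73 and S100a3), so the counts and the median of this list describe it and support nothing. The summed level of the list was 43.1 to 68.1 CPM in the ointment libraries and 92.2 to 861 CPM in the saline libraries, and none of its genes was at 0 in all libraries of a group. The root sheath keratin Krt71 (-8.46 on the log2 scale, adjusted p = 0.00698 by edgeR) and the follicle transcription factors Hoxc13 (-2.28, 0.00698) and Lef1 (-1.97, 0.0143) were among those called. Of 14 dermal papilla markers tested, 2 were called lower by edgeR, Alx4 (-2.66, adjusted p = 0.0199) and Lrp4 (-0.75, 0.0304). Wif1 (-1.75, adjusted p = 0.0639) and Corin (-2.87, 0.0873) did not pass. Of these 14, 10 had negative and 4 had positive log2 fold changes (median -0.56). At an unadjusted p under 0.05 they numbered 6, and DESeq2 called 6, with Hhip, itself one of the 9 Hedgehog genes, in both counts. Of 11 follicle stem cell markers tested, 2 were called lower, Lgr6 (-1.71, adjusted p = 0.00643) and Lhx2 (-2.37, 0.0175). Of these 11, 7 had negative and 4 had positive log2 fold changes (median -0.57), 5 had an unadjusted p under 0.05, and DESeq2 called 4. The dermal papilla sums overlapped, at 168 to 251 CPM with ointment and 176 to 299.9 CPM with saline. Crabp1 was the largest single part of them, at 121 ± 37.2 CPM with ointment and 111 ± 35.1 CPM with saline (SD, n = 5 each). These sums therefore say little about the other markers of that list. The stem cell sums also overlapped, at 542 to 765 CPM with ointment and 764 to 1493 CPM with saline. The part of follicle content in the Hedgehog values was not tested.

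Within groups, follicle markers and Hedgehog genes did not rank libraries alike in every case. Saline 5 had the lowest follicle matrix sum of its group, 92.2 CPM, and also the lowest Shh of its group. The ointment library with the highest sum, ointment 5 at 68.1 CPM, had more Tchh (35.8 CPM, against 15.6 CPM in saline 5) and less Krt71 (0.151 CPM, against 4.68 CPM in saline 5). Ointment 1 and 3, the libraries without Shh counts, had the lowest follicle matrix sums of all, 43.1 and 44.2 CPM, but their Gli1 levels of 3.96 and 4.41 CPM were in the middle of the ointment group.

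The summed level of 12 fibroblast markers overlapped between the groups, at 12977 to 43966 CPM in the ointment libraries and 26714 to 40584 CPM in the saline libraries. In these libraries Col1a1 and Col3a1, which encode fibrillar collagens, made up 71.1 to 89.9% of the sum with ointment and 82.4 to 87.8% with saline. Of the 12 markers 0 were called by edgeR, 4 had an unadjusted p under 0.05, 0 were called by DESeq2, and 0 were without overlap. Ointment 5 and 2 had the lowest sums, 12977 and 17935 CPM, and also the lowest Gli1 and Gli2 of their group. Without Col1a1 and Col3a1 the sums of ointment 5 and 2, 3757 and 3001 CPM, were still the lowest of their group. Single markers differed in how they ordered the libraries. Fbln1 was also lowest in ointment 5 and 2, at 35.5 and 38.5 CPM. The growth factor receptor gene Pdgfra was instead at 413 CPM in ointment 5 and 397 CPM in ointment 2, against 231 to 373 CPM in the saline libraries. The part of fibroblast content in the Hedgehog values was not tested.

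**Figure D5:**
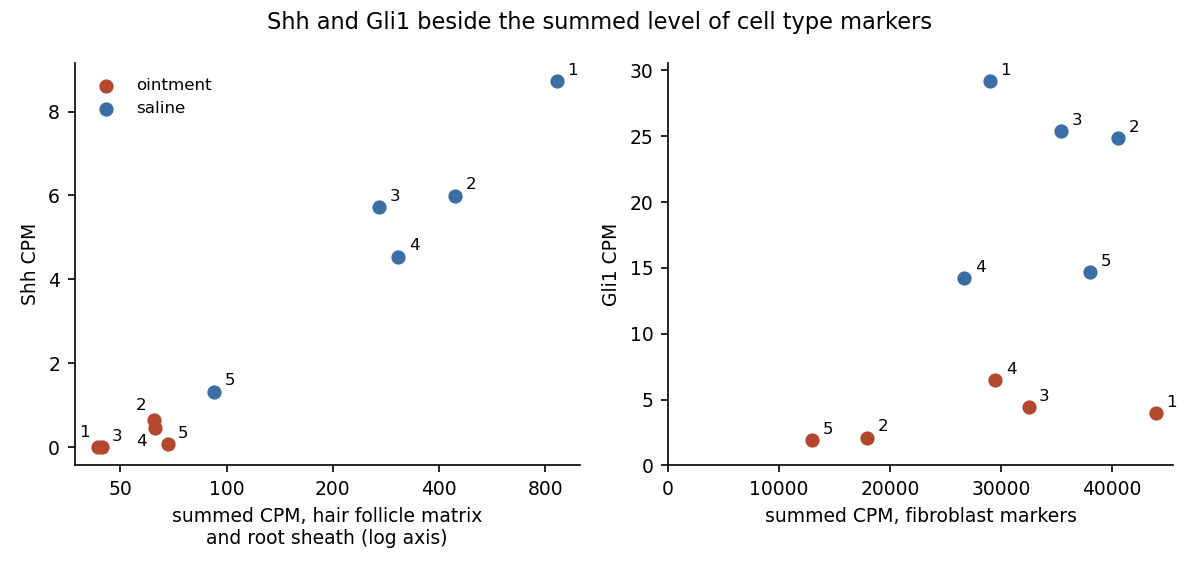
Left, Shh in CPM (vertical axis) against the summed CPM of follicle matrix and root sheath markers (log axis); right, Gli1 in CPM against the summed CPM of fibroblast markers, with 1 point per library labelled by its number. Ointment libraries are at the lower left of the Shh panel with sums of 43.1 to 68.1 CPM, and in the Gli1 panel they span fibroblast sums of 12977 to 43966 CPM, which are mostly Col1a1 and Col3a1.

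Of 12 tested markers of nerve and Schwann cells, the cells known for Dhh, Sox10 was called lower (-1.45, adjusted p = 0.0401 by edgeR), 11 had negative values, 4 had an unadjusted p under 0.05, and DESeq2 called 3. Omitting a library left Sox10 called in 1 of 10 fits (adjusted p up to 0.0976). Without overlap, 3 of the 12 were lower (Sox10, Ngfr and Egr2) and 0 higher, beside 3.44% of all tested genes lower. The sums overlapped at 131 to 308 CPM with ointment and 133 to 404 CPM with saline. Pmp22 (means of 106 CPM with ointment and 147 CPM with saline) and Mbp (58.2 and 53.9 CPM) were their largest parts on average. Of 10 smooth muscle and pericyte markers, Myh11 was called lower (-0.83, adjusted p = 0.04 by edgeR), and omitting any library lost that call (adjusted p 0.0519 to 0.0956). All 10 had negative values (median -0.79), 7 at an unadjusted p under 0.05 and 3 called by DESeq2, and the sums overlapped at 489.95 to 1118 CPM with ointment and 1041 to 1559 CPM with saline. Of 14 sebaceous gland markers, edgeR called 0 (3 at an unadjusted p under 0.05, 1 by DESeq2), and the sums overlapped widely, at 1452 to 5918 CPM with ointment and 1841 to 4220 CPM with saline. Of 12 endothelial markers, edgeR called 0 (5 unadjusted, 1 by DESeq2), with sums of 434 to 752 CPM with ointment and 709 to 1029.5 CPM with saline. All 12 had negative values (median -0.53). Of 8 keratinocyte markers, edgeR called 0 (3 unadjusted, 3 by DESeq2), with sums of 12149 to 20521 CPM with ointment and 16891 to 24437 CPM with saline. Among these 8, 7 had negative values and 1 a positive one (median -0.27). Macrophage markers went the other way, with 3 of 10 called higher by edgeR (8 unadjusted, 6 by DESeq2). Their sums were 6682 to 8684 CPM with ointment and 2747 to 5235 CPM with saline. What these cell types contribute to the Hedgehog values was not tested.

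The genes whose log2 CPM followed Shh most closely over the 10 libraries, among 15125 genes with at least 1 CPM on average, were Cyp17a1, Mycn, Krt28, Krt71 and Celsr2 (Pearson r 0.976 to 0.984). Krt28 and Krt71 are root sheath keratins, Celsr2 is a planar polarity cadherin, and Cyp17a1 is a steroid hydroxylase. Cyp17a1 was at 5.47 ± 1.42 CPM with ointment and 14.0 ± 2.84 CPM with saline (SD, n = 5 each). Those closest to Gli1 were Mlana, Efna4, Id4, Lef1 and Myh11 (r 0.965 to 0.984). Mlana is a melanocyte gene, Id4 an inhibitor of helix-loop-helix factors and Efna4 an ephrin. Efna4 was at 9.82 ± 1.28 CPM with ointment and 16.2 ± 1.43 CPM with saline (SD, n = 5 each). All 10 libraries enter these correlations, so the difference between the groups is part of each r. With the group means removed, r was 0.857 to 0.906 for the 5 genes closest to Shh and 0.776 to 0.942 for those closest to Gli1. Among the Hedgehog genes, r with Gli1 was 0.915 for Gli2, 0.898 for Shh, 0.847 for Hhip, 0.838 for Smo, 0.589 for Ptch1, 0.525 for Dhh and 0.307 for Gli3. With the group means removed it was 0.884 for Gli2, 0.586 for Smo, 0.416 for Gli3, 0.388 for Hhip, 0.369 for Shh, 0.281 for Dhh and -0.507 for Ptch1. These are descriptions over libraries of shared composition and were given no test.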

How the data were processed

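Ulcer RNA was sequenced in 10 libraries, 5 per group. Per the labels' protocols, a SMARTer kit for mRNA was used, and strand is not stated. Per the submitters' processing notes, the build was GRCm38 (mm10). Which aligner and counter were used is not given in the sources used here. Whole-number estimated counts per gene, not normalized, were deposited by the authors. In genes with a single transcript, 8 occurred 3017 times, against 1236 for 7 and 1765 for 9, so a value need not stand for 1 read. Whole values needed no rounding. The test had been fixed for counts and was kept.

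Groups were compared with edgeR 4.0.16 (R 4.3.3; quasi-likelihood F-test, robust, TMM, group as the only term). Low genes were removed by filterByExpr (count minimum 10, total minimum 15). P-values were adjusted by Benjamini-Hochberg over the 18509 tested genes, and the threshold was 0.05. Confidence intervals (95%) use the SE and the degrees of freedom of the fit. Ihh, left out by the filter, and ratios within libraries were compared by exact two-sided permutation tests. Exon lengths and locations came from GENCODE mouse release 21 (GRCm38), where 55240 of the IDs were found. Promoter sequences came from RefSeq (GRCm38.p6). The pipeline was tested on simulated data.

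Named genes were the 9 members, called genes and up to 4 with the smallest p of each list, and 5 genes most like Shh and Gli1; other genes of the reception, target and marker lists were named after their values were seen. The members and lists were chosen with earlier results of these data known. A gene of the pathway lists is not reported here and is left out of their counts, though it stayed in the fit. Listed symbols were matched exactly, and 1 was not in the table under that symbol. Alternatives were DESeq2 1.42.0, limma 3.58.1 (voom with sample weights), sva 3.50.0 (1 surrogate variable), other scalings and filters, no robust dispersion, values divided by 4, the replicate number as a block, each library left out in turn, and 4 libraries per group (without saline 1 and ointment 5). Pseudocounts for the ratios were varied after the data had been seen. Intervals and floors from counts (3 counts for a count of 0) cover counting error only.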

Additional observations from a re-analysis of the deposited data

Results flagged for a closer look

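Ihh in ointment 4, at 0.591 CPM, stood apart from the other 4 ointment libraries, which ranged from 0 to 0.107 CPM. Its distance from the next library was 0.82 of the range of the group, above the critical value of 0.71 for 5 libraries. It was the single such case among 20 sets of 5 values examined, where chance gives about 1 in 20. The value rests on 33 counts, and its cause was not tested.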

How the results depend on the processing

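Of 176 refits of the 8 tested members, 166 kept both the direction and the side of the threshold. Gli1 lost its call with 4 libraries per group and with the replicate block (adjusted p = 0.141). Gli3 turned to 0.013 with 4 libraries per group. DESeq2 called 1677 genes (9.09%), 6 members, 2 relay genes, 1 cilium gene and 4 reported targets. The members were Shh, Ptch1, Smo, Hhip, Gli1 and Gli2. With values divided by 4, 2 members were called, Gli1 and Shh (adjusted p = 0.0308). With 1 surrogate variable 195 genes were called, with 1 reception gene and 1 target. Without the low-count filter 1 target was called. With 4 libraries per group 59 genes were called, and 0 members (6 at an unadjusted p under 0.05), 1 reception gene and 0 targets (4 unadjusted). Same-numbered libraries showed little shared deviation (correlations -0.0772 to 0.0562, and 1 of 5 ointment libraries correlated best with its own number). A weak pairing could give such values too, so whether the numbers pair the libraries was not settled. With the replicate block edgeR called 0 genes (2602 unadjusted), 0 members (6), 0 reception genes (3) and 0 targets (5). Leaving out 1 library gave 102 (without ointment 3) to 422 (without ointment 4) genes called, 1 to 2 members, 1 to 2 reception genes, 0 to 1 relay genes, 0 cilium genes and 1 to 2 targets. The single reception gene was left without ointment 1, 2 or 3 or saline 1, 2, 3 or 4, and the single target without ointment 1, 2, 3 or 5 or saline 1, 2 or 3. The lower counts, all below 310 divided by 1.5, were 154, 184, 102 and 112 without ointment 1, 2, 3 and 5, and 139, 171, 143 and 150 without saline 1, 2, 3 and 4.

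Over fits with a library left out, the log2 ratio differences ran from -2.58 to -2.20 for Gli1 over Gli3, -1.02 to -0.65 for Gli2 over Gli3, -1.59 to -1.41 for Gli1 over Gli2 and -2.47 to -1.71 for Shh over Dhh. That of Ptch1 over Smo ran from -0.996 to 0.092, turning positive without ointment 4. The Ihh difference ran from -0.0232 CPM (without ointment 4) to 0.125 CPM. Among 64 other named genes, 1282 of 1406 refits kept direction and side, 88 lost a call, 27 gained it, and 9 changed sign. The sign changed for Hhat and Scube2 with 1 surrogate variable (0.039 and 0.065) and with 4 libraries per group (0.096 and 0.081). With a library left out Hhat ran from -0.31 (without ointment 1) to 0.079 (without ointment 2) and Scube2 from -0.32 (without ointment 1) to 0.067 (without ointment 5), and the muscle gene Actn3 ranged from -0.16 (without ointment 4) to 0.51 (without saline 3). The cause of these changes was not tested. Depth limits Ihh, Shh, Dhh and Hhip, whose counts in some libraries were under 10.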

Other observations

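Gas1, a Hedgehog co-receptor of fibroblasts, was listed at 0 in all 5 ointment libraries and in 4 of 5 saline libraries, and at 34.3 CPM in saline 3, and was not tested. Fzd2, from the follicle stem cell list, was likewise listed at 0 except for 49.6 and 52.2 CPM in saline 3 and 5. Whether such values of 0 stand for absent transcript or come from the counting was not tested. Foxe1, a follicle transcription factor reported as a Gli target, was at 0 to 0.0747 CPM in the ointment libraries and at 0 to 4.33 CPM in the saline libraries, and did not enter the test. Lrp2, a large endocytic receptor that binds Shh, was near the limit of detection in both groups, at 0.113 ± 0.149 CPM with ointment and 0.0356 ± 0.0370 CPM with saline (SD, n = 5 each).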
